A study of Mus musculus with 8 samples.

Results

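Mitosis, spindle and kinetochore genes were followed from naive CD4 T cells into Th17 cells, the helper T cells that make interleukin-17. The set held 54 named genes, found by symbol, and all 54 were among the 16308 genes of the expression table. It covered cyclins and kinases of mitosis, the spindle checkpoint, centromere and kinetochore proteins, kinesins, spindle and cytokinesis factors, condensin and the machinery of anaphase. RNA depleted of ribosomal RNA had been sequenced in 8 libraries of C57BL/6 mouse CD4 T cells, with 2 independent biological replicates in each of 4 groups per the series design. The descriptions of naive library 2 and Th17 library 2 share an identifier that those of library 1 do not, and the labels do not say what it marks. The Th17 cells had been cultured for 72 h on plates coated with hamster IgG, where 0.25 µg/mL of anti-CD3ε and 1 µg/mL of anti-CD28 stimulated them and 20 ng/mL of IL-6 with 0.1 ng/mL of TGF-β steered them. The growth protocol in the labels gives a wider range for TGF-β than the treatment label quoted here. The naive cells were untreated Naive CD4+ cells. The headers of the gene counts mark the naive and Th17 libraries alike as WT, for wild type. Gene counts were given for these 4 libraries, with 11768994 to 26624436 reads on genes per library. DDX5-deficient Th17 cells (DDX5∆T) and a separate group of wild type Th17 cells (WT) were cultured for 72 h in the same medium. They entered only through a table of RNA-edited sites, and their mitosis gene levels were not analysed here. The labels used here do not say which Cre or promoter drives the DDX5 deletion.

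Before a cell divides it builds cyclin B with CDK1, the kinase that drives entry into mitosis. Chromosomes are then compacted by condensin and captured through kinetochores by the spindle, and a checkpoint holds the cell until every chromosome is attached. The anaphase-promoting complex (APC/C) then marks securin and cyclin B for destruction, sister chromatids part, and a contractile ring splits the cell. Naive T cells rest outside the cell cycle, and stimulation through the T cell receptor sets them dividing. In cycling cells most of these genes are transcribed in a wave in G2 and M phase, through a promoter element called the cell cycle genes homology region (CHR), which is bound by the MuvB complex, and through CCAAT boxes bound by NF-Y.

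The promoters of the mitosis genes carried the letters of that element more often than promoters at large. RefSeq windows on GRCm38.p6, from 250 bases before to 50 bases after a start site, were matched for 46 of the 54 genes, with 51 windows in all. Aurkb, Ccna2, Cdc25c, Incenp, Kif20a, Smc4, Spc24 and Tpx2 were not matched. The CHR letters TTTGAA or TTCGAA, on either strand, stood in 76.5% of the 51 windows of the mitosis genes and in 19.2% of all 32851 promoter windows. TTTGAA alone stood in 72.5% of the mitosis windows and in 17.9% of all windows, TTCGAA in 7.84% and 1.56%, and CCAAT on either strand in 76.5% and 37.4%. TTCGAA is its own reverse complement, and a CCAAT can overlap a CHR match by no more than an end base. The windows below show one CHR match per role, with a second gene for the cyclin and CDK1 group, each as 30 bases of the gene's own strand with the CHR letters in capitals.
Ccnb2, chr9:70421533-70421562, minus strand: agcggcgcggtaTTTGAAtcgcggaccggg
Cdk1, chr10:69352910-69352939, minus strand: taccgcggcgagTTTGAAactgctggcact
Plk1, chr7:122159453-122159482, plus strand: cccagcgccgcgTTTGAAttcggggaggag
Bub1, chr2:127831828-127831857, minus strand: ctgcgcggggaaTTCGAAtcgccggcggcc
Cenpf, chr1:189688067-189688096, minus strand: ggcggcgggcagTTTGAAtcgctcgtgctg
Kif23, chr9:61946780-61946809, minus strand: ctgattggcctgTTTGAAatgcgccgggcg
Hmmr, chr11:40733412-40733441, minus strand: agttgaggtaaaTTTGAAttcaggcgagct
Racgap1, chr15:99651634-99651663, minus strand: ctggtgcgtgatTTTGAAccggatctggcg
Ncapg, chr5:45669883-45669912, plus strand: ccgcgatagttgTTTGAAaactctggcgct
Cdc20, chr4:118437344-118437373, minus strand: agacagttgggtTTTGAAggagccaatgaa
These letters lay close to the start site. They began 4 bases after the first transcribed base in Ccnb2, 2 bases after it in Cenpf and Kif23, and 15 bases before it in Cdk1.

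The position was shared beyond these examples. In the 25 bases from the start site onwards, 29.4% of the mitosis windows held the CHR letters, against 1.43% of all windows. Further upstream the shares varied from bin to bin. They were 1.96% of the mitosis windows and 1.99% of all windows from 100 to 76 bases before the start, and 11.8% and 1.96% from 125 to 101 bases before it. In the bins further out they ran from 1.96% to 5.88% of the mitosis windows and from 2.03% to 2.30% of all windows. Among the 46 genes 36 had the letters in a window, and 31 had them within 60 bases of a start site. The 10 genes with none in these windows were Birc5, Ccnb1, Cenpe, Cenpk, Kif18a, Ncaph, Nuf2, Nusap1, Plk4 and Pttg1. A match of letters is a description of the sequence and does not show binding.

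**Figure D1:**
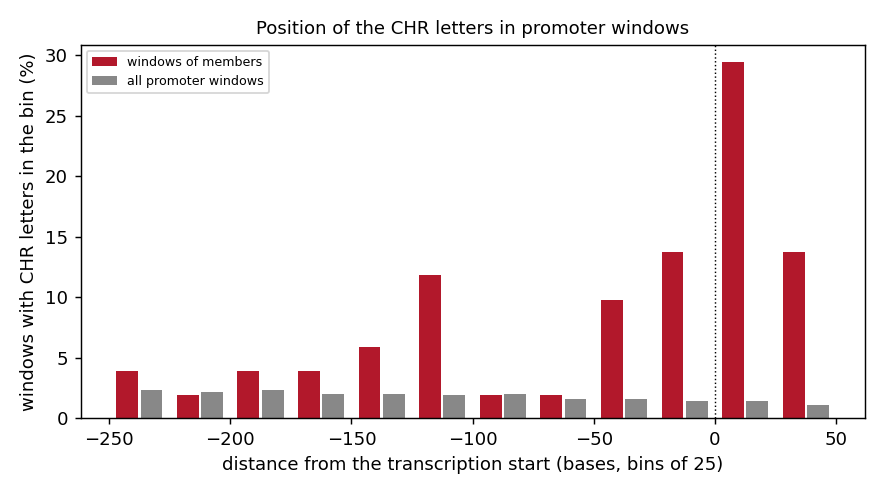
Percent of promoter windows (y axis) with the CHR letters TTTGAA or TTCGAA on either strand in each bin of 25 bases (x axis, distance from the transcription start), for the 51 windows of mitosis genes (red) and all 32851 windows (grey). The tallest red bar, 29.4%, lies just after the start, where the grey bar is 1.43%.

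Markers of Th17 cells summed to 3490 and 3270 CPM (a read count scaled to a common library size) in Th17 libraries and to 0.796 and 0.563 CPM in naive libraries, with Il17a at 0 reads there. The 4 measured of 5 general CD4 T cell markers summed to 1470 and 1300 CPM in Th17 and 3740 and 4280 CPM in naive libraries, and the naive markers to 1010 and 942 CPM in Th17 and 5980 and 6210 CPM in naive libraries. Of the 5 B cell markers, 5 myeloid and 5 CD8 and NK markers, all measured, the sums were 0.520 and 1.29, 3.89 and 4.32, and 22.7 and 23.1 CPM in Th17 libraries. In naive libraries they were 2.12 and 2.96, 7.75 and 7.96, and 82.1 and 100 CPM, with Ms4a1 at 0 reads. Dendritic markers summed to 3.92 and 4.47 CPM in Th17 and 2.65 and 1.69 CPM in naive libraries. Siglech was at 0 in Th17 and Xcr1 at 0 in naive libraries. Within these lists markers went both ways. Zbtb46 had 3.09 and 4.09 CPM in Th17 and 0.318 and 0.211 CPM in naive libraries, and Itgax 0.139 and 0 against 1.27 and 1.06 CPM. Of the myeloid markers Cd14 had 3.26 and 2.65 against 0.0531 and 0 CPM. Lyz2, Itgam and Fcgr3 were lower in both Th17 libraries. The part of such other cells in the results was not tested. Whether reads were counted by strand is not given in the sources used here. Of the 54 genes, 8 share at least 5% of their exon bases with a gene on the opposite strand. These are Kif20a at 29.3%, Ube2c at 22.8%, Kif4 at 15.1%, Ncapg at 13.4%, Cdc25c at 12.7%, Ccna2 at 12.5%, Prc1 at 11.1% and Plk1 at 7.09%. If reads were not counted by strand, those in the shared bases cannot be told apart by gene.

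Th17 cells held far more mitotic RNA than naive cells. All 54 genes passed the filter on low counts, 50 were higher in Th17 cells and Smc4 was lower, while Bub3, Cdc25b and Pttg1 did not pass the test. The authors' deposited table likewise held 50 of the genes as higher and 1 as lower. The test was edgeR's quasi-likelihood test with a Benjamini-Hochberg adjusted p under 0.05 over all 11989 genes tested, of which 65.1% were called, 34.3% higher and 30.7% lower. The median log2 fold change was 4.47 over the 54 genes and 0.06 over all genes tested, and 18 of the 54 were higher by a log2 of at least 5, as were 7.10% of all genes. In 50 genes both Th17 libraries lay above both naive libraries, which was so for 44.1% of the genes tested. Levels are CPM on library sizes scaled by TMM. Where 2 values are given for a group, the first is library 1. In these bulk samples a larger share of dividing cells and more RNA per cell cannot be told apart.

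The 54 genes summed to 4100 and 3370 CPM in the Th17 libraries, against 1130 and 1060 CPM in the naive libraries, where Smc4 alone made up 53.2% and 53.7% of the sum. The 50 genes called higher, which that call selects, summed to 3660 and 3010 CPM in the Th17 libraries, against 333 and 264 CPM in the naive libraries. Levels in Th17 cells were also more alike from gene to gene. Per kilobase of merged exon, the middle of the 54 genes spanned 6.30 to 19.3 CPM in Th17 cells, a quartile ratio of 3.07, and 0.190 to 1.32 CPM in naive cells, a ratio of 6.96. Across the 54 genes the log2 fold change followed the naive level at Spearman's rho = -0.786 and the Th17 level at 0.0664, a description of genes that share the same 4 libraries. The naive level enters the fold change itself.

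**Figure D2:**
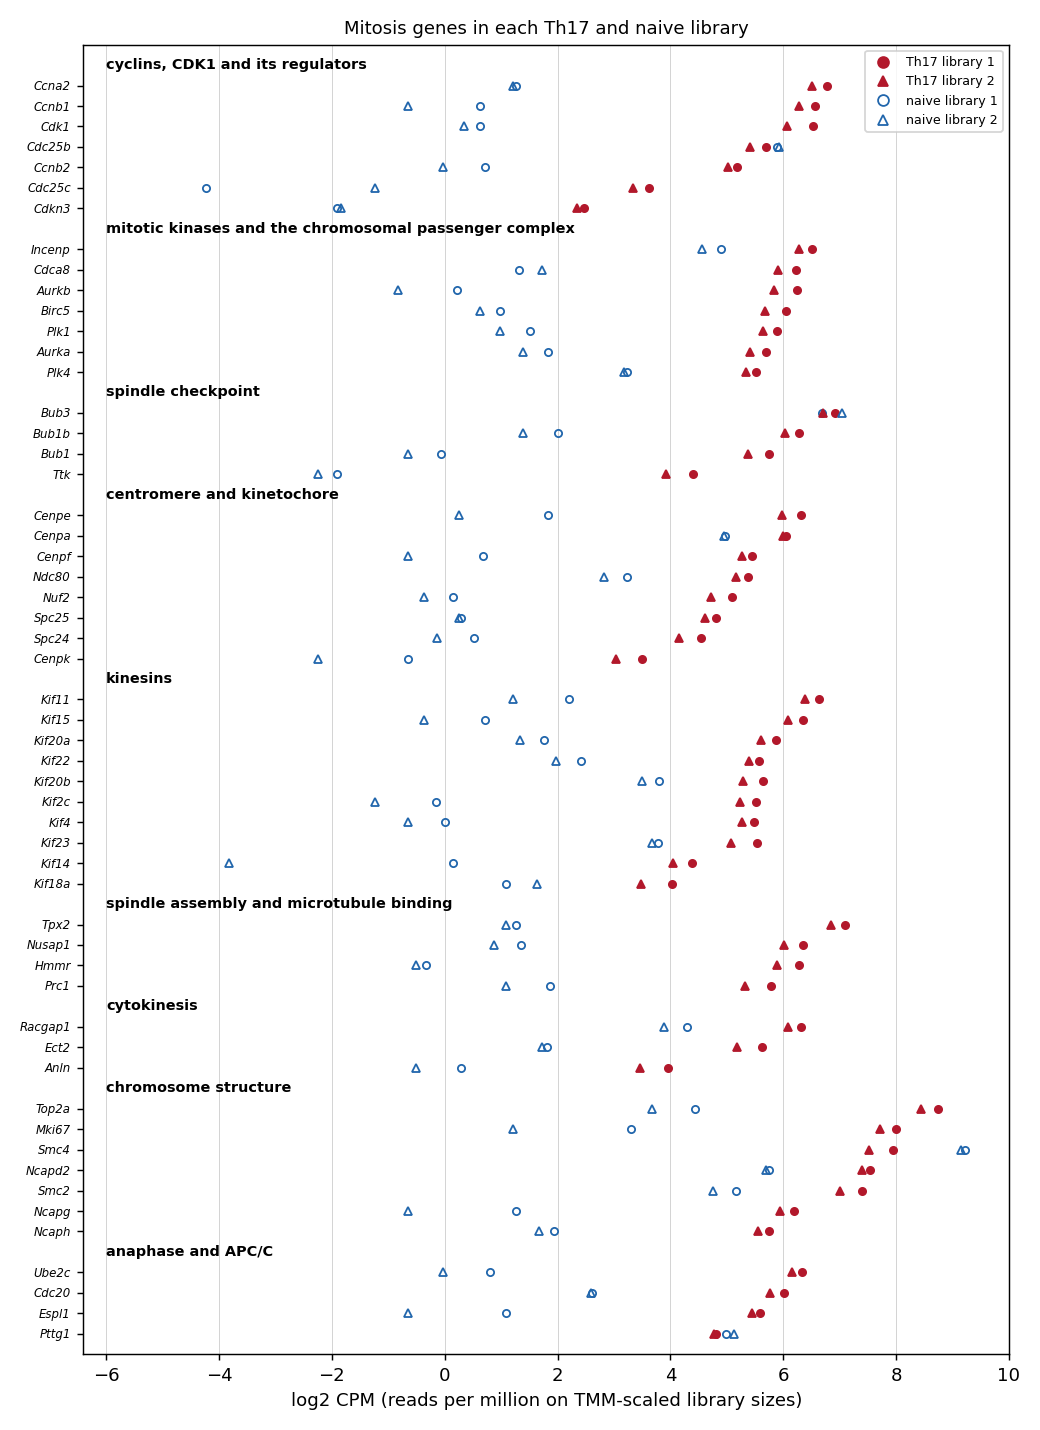
Log2 CPM (x axis) of each of the 54 genes (y axis, grouped by role) in Th17 library 1 (filled circle), Th17 library 2 (filled triangle), naive library 1 (open circle) and naive library 2 (open triangle). Red Th17 symbols lie to the right of the blue naive symbols in 50 genes, and Smc4 is the gene with both Th17 libraries well to the left.

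The kinase that drives mitosis and its cyclins were low in naive cells. Cdk1 had 91.9 and 67.4 CPM in the Th17 libraries, against 1.54 and 1.27 CPM in the naive libraries. Ccnb1, which encodes cyclin B1, had 94.5 and 78.0 CPM in Th17 and 1.54 and 0.634 CPM in naive libraries. Ccna2, the cyclin A2 gene that acts in S and G2 phase, had 109 and 91.4 CPM in Th17 and 2.39 and 2.32 CPM in naive libraries. Both Th17 libraries lay above both naive libraries for each of these genes, as for 44.1% of all genes tested. The log2 fold changes were 5.81 (SE 0.25) for Cdk1, 6.25 (SE 0.33) for Ccnb1 and 5.41 (SE 0.20) for Ccna2. Ccnb2 rose by 4.68 (SE 0.27), and Cdkn3, a phosphatase gene that acts on CDKs, by 4.25 (SE 0.53). Cdkn3 had 5.52 and 5.08 CPM in Th17 and 0.265 and 0.282 CPM in naive libraries, from 5 and 4 naive reads. The phosphatases that switch CDK1 on differed from each other. Cdc25c had 12.3 and 10.1 CPM in Th17 and 0.0531 and 0.422 CPM in naive libraries, from 1 and 6 naive reads, and rose by 5.63 (SE 0.71). Its paralog Cdc25b had 51.5 and 42.4 CPM in Th17 and 59.5 and 60.5 CPM in naive libraries, a log2 of -0.35 (SE 0.16) with an edgeR adjusted p of 0.078, which missed the threshold. Thus 6 of the 7 genes of this group were higher, where 34.3% of all genes tested were. The same share stands beside the counts of the groups below. Without naive library 1 the log2 of Ccnb1 was 7.03 and that of Cdc25c 4.67, and without naive library 2 that of Cdc25c was 7.50.

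All 7 genes of the mitotic kinases and the chromosomal passenger complex were higher. Aurkb, the kinase that corrects faulty kinetochore attachments, had 75.8 and 57.4 CPM in Th17 and 1.17 and 0.563 CPM in naive libraries. Birc5, which encodes survivin of the same complex, had 66.1 and 51.4 CPM in Th17 and 1.96 and 1.55 CPM in naive libraries. Incenp, the scaffold of the complex, had 91.0 and 77.9 CPM in Th17 and 29.9 and 23.5 CPM in naive libraries. The log2 fold changes were 6.21 (SE 0.32) for Aurkb, 5.05 (SE 0.23) for Birc5, 4.55 (SE 0.22) for Cdca8, which encodes borealin, and 1.66 (SE 0.18) for Incenp. Aurkb stood at a log2 of 6.83 without naive library 1. Aurka, the kinase of spindle poles, rose by 3.93 (SE 0.22), and Plk1, a kinase of mitotic entry and spindle assembly, by 4.48 (SE 0.23). Plk4, which starts centriole duplication, rose less, by 2.22 (SE 0.17), with 45.6 and 40.3 CPM in Th17 and 9.44 and 9.01 CPM in naive libraries.

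The spindle checkpoint split by gene. Ttk, the kinase that starts the signal, had 21.2 and 15.2 CPM in Th17 and 0.265 and 0.211 CPM in naive libraries, a log2 of 6.20 (SE 0.38). Its naive values came from only 5 and 3 reads. Bub1 and Bub1b, the kinase and its relative BUBR1, rose by 5.87 (SE 0.27) and 4.41 (SE 0.24). Bub3, which carries both to the kinetochore and was the fourth gene of this group, had 121 and 105 CPM in Th17 and 103 and 132 CPM in naive libraries. Its groups overlapped, and its log2 of -0.06 (SE 0.18) turned positive with upper quartile scaling, with library totals, and without naive library 2 or Th17 library 2. Its promoter and that of Cdc25b, both of genes that were not called, nonetheless held the CHR letters, in Bub3 read on the opposite strand as TTCAAA.
Bub3, chr7:131560315-131560344, plus strand: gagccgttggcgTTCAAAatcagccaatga
Cdc25b, chr2:131186943-131186972, plus strand: ccgctgttatttTTCGAAtatataaggagg

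All 8 centromere and kinetochore genes were higher, by very different amounts. Cenpe, the kinesin that moves chromosomes to the spindle equator, had 79.8 and 63.4 CPM in Th17 and 3.56 and 1.20 CPM in naive libraries. Cenpf, a large protein of the outer kinetochore, had 43.4 and 38.4 CPM in Th17 and 1.59 and 0.634 CPM in naive libraries. Their log2 fold changes were 4.86 (SE 0.52) and 5.15 (SE 0.37). Cenpa encodes the histone that marks the centromere, in resting cells too. It had 66.6 and 63.7 CPM in Th17 and 31.2 and 31.0 CPM in naive libraries, and its log2 of 1.07 (SE 0.15) was the smallest rise of the 50. Without naive library 1 the log2 was 5.85 for Cenpe, 5.96 for Cenpf and 5.44 for Cenpk, which rose by 4.46 (SE 0.54), and without naive library 2 it was 4.25 for Cenpe and 3.84 for Cenpk.

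The Ndc80 complex couples kinetochores to microtubules. Its genes rose by a log2 of 2.23 (SE 0.20) for Ndc80, 4.98 (SE 0.28) for Nuf2, 4.11 (SE 0.32) for Spc24 and 4.44 (SE 0.24) for Spc25. Per kilobase, the highest of the 4 subunit genes stood 1.68 and 1.86 times above the lowest in the Th17 libraries, and 8.18 and 8.88 times in the naive libraries. In the chromosomal passenger complex that ratio was 1.78 and 1.68 in the Th17 libraries and 17.4 and 28.4 in the naive libraries. The span from the lowest to the highest subunit gene was thus narrower in Th17 cells for both complexes. In the naive libraries the highest were Ndc80, at 1.44 and 1.08 CPM per kilobase, and Incenp, at 6.90 and 5.43. The other passenger genes ran from 0.396 to 0.577 in naive library 1 and from 0.191 to 0.639 in naive library 2. The wide naive ratio of the passenger complex thus came largely from Incenp. The naive ratios rest on few reads of the lowest genes, 21 and 11 for Nuf2 and 22 and 8 for Aurkb.

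Condensin I, the ring that compacts chromosomes, held the one gene that fell. Smc4 (chromosome 3, 69004738 to 69034623, plus strand) had 246 and 184 CPM in Th17 libraries, against 599 and 569 CPM in naive libraries. Both Th17 libraries lay below both naive libraries, and the log2 fold change was -1.44 (SE 0.19), for which edgeR gave an adjusted p of 2.0e-04. Its partner Smc2 went the other way, with 168 and 128 CPM in Th17 and 35.7 and 27.1 CPM in naive libraries, a log2 of 2.24 (SE 0.21). The regulatory subunits also rose, Ncapd2 by 1.75 (SE 0.15), Ncaph by 3.84 (SE 0.19) and Ncapg by 5.40 (SE 0.56). Per kilobase, Smc4 stood 4.59 and 4.08 times above Ncapg, the lowest subunit gene, in the Th17 libraries. In the naive libraries it stood 340 and 1220 times above Ncapg, which had only 45 and 9 reads there. The log2 of Ncapg was 6.67 without naive library 1 and 4.73 without naive library 2. Smc4 made up 5.99% and 5.47% of the summed CPM of the 54 genes in Th17 libraries and 53.2% and 53.7% in naive libraries. By RefSeq coordinates an intron of Smc4 holds the microRNA genes Mir15b and Mir16-2, whose levels were not analysed here.

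**Figure D3:**
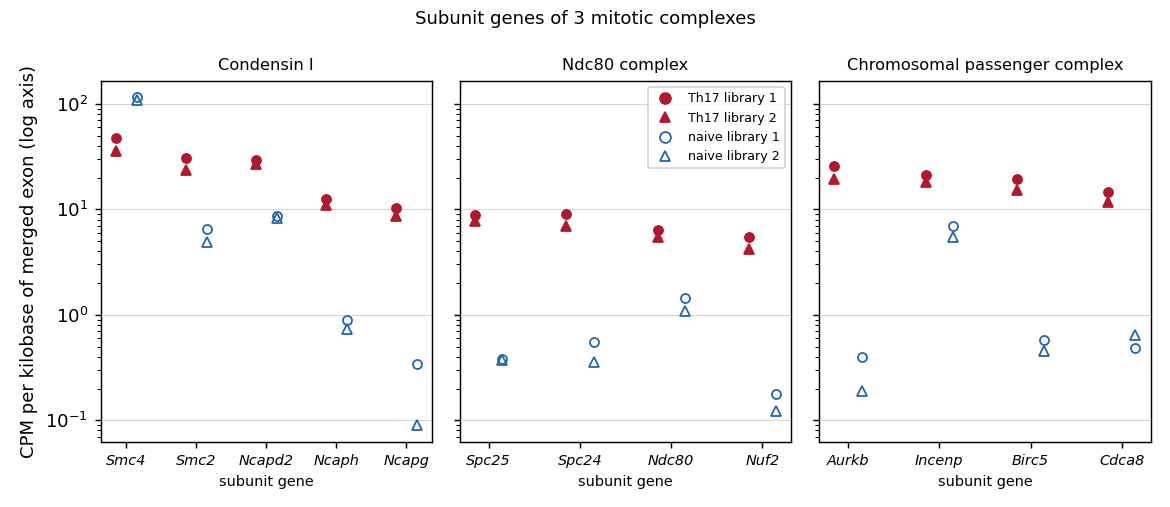
CPM per kilobase of merged exon (y axis, log scale) of the subunit genes of condensin I, the Ndc80 complex and the chromosomal passenger complex (x axis) in the Th17 libraries (filled) and naive libraries (open), circles for library 1 and triangles for library 2. The span of the subunit genes is narrower in Th17 than in naive cells, where Smc4 reaches 115 and 109 and Incenp 6.90 and 5.43.

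Other genes of chromosome structure rose with the regulatory subunits. Top2a, the topoisomerase that untangles sister chromatids, had 426 and 346 CPM in Th17 and 21.8 and 12.7 CPM in naive libraries. Per kilobase of exon its Th17 mean of 42.8 CPM was the highest level of the 54 genes, ahead of Smc4 at 41.3 CPM. Mki67 encodes Ki-67, the coat protein of mitotic chromosomes and the usual marker of proliferation. It had 257 and 211 CPM in Th17 and 9.82 and 2.32 CPM in naive libraries. The log2 fold changes were 4.48 (SE 0.30) for Top2a and 5.23 (SE 0.87) for Mki67, with an adjusted p of 0.022 for Mki67 by edgeR. Mki67 was not called without Th17 library 1 or without Th17 library 2, at a log2 of 5.05 and 5.37, close to that of the full fit. With all libraries kept, its edgeR adjusted p ran from 0.006 with library totals to 0.034 with no filter on low counts. By the DESeq2 Wald test its adjusted p was 1.2e-08. The log2 of Mki67 was 6.61 without naive library 1 and 4.50 without naive library 2.

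All 10 kinesin genes were higher. The largest rises were those of Kif2c, a microtubule depolymerase at centromeres, by a log2 of 5.91 (SE 0.32), of Kif15 by 5.90 (SE 0.30) and of Kif4, a chromosome-bound motor, by 5.63 (SE 0.26). Kif11, the motor that pushes spindle poles apart, had 98.8 and 83.9 CPM in Th17 and 4.62 and 2.32 CPM in naive libraries, a log2 of 4.69 (SE 0.32). Kif20a rose by 4.17 (SE 0.22) and Kif22 by 3.26 (SE 0.21). Kif18a at 2.40 (SE 0.34), Kif20b at 1.81 (SE 0.19) and Kif23 at 1.60 (SE 0.20) rose least. Kif23, the motor of the central spindle in cytokinesis, had 46.4 and 33.8 CPM in Th17 and 13.7 and 12.8 CPM in naive libraries. Kif14 rested on few naive reads, with 20.9 and 16.6 CPM in Th17 and 1.11 and 0.0704 CPM in naive libraries, from 21 reads and 1 read. Its log2 was 4.88 (SE 1.04), 7.89 without naive library 1 and 3.99 without naive library 2. With no filter on low counts it was not called, at nearly the same log2 of 4.89 and an edgeR adjusted p of 0.080 in a range of 1.1e-29 to 0.080 over 11 alternatives. Without naive library 1 Kif2c stood at a log2 of 6.56 and Kif15 at 6.54.

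Spindle assembly genes showed the largest rise of all 54. Hmmr, a spindle and microtubule protein, had 77.3 and 59.4 CPM in Th17 and 0.796 and 0.704 CPM in naive libraries, a log2 of 6.49 (SE 0.25), which is 89.9-fold. Tpx2, which activates Aurora A on the spindle, rose by 5.79 (SE 0.21), Nusap1 by 5.04 (SE 0.23) and Prc1, the bundler of central spindle microtubules, by 4.02 (SE 0.31). The 3 cytokinesis genes also rose, Ect2, the exchange factor that activates RhoA, by 3.64 (SE 0.22), its partner Racgap1 by 2.10 (SE 0.19) and the ring scaffold Anln by 3.76 (SE 0.40). Racgap1 had 79.6 and 67.8 CPM in Th17 libraries, against 19.5 and 14.8 CPM in naive libraries.

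Genes of anaphase differed as those of the checkpoint did. Ube2c, the ubiquitin-conjugating enzyme of the APC/C, had 80.5 and 71.1 CPM in Th17 and 1.75 and 0.986 CPM in naive libraries, a log2 of 5.75 (SE 0.25). Cdc20, its activator, rose by 3.29 (SE 0.18), and Espl1, the protease separase that cuts cohesin, by 4.99 (SE 0.51). The log2 of Espl1 was 6.12 without naive library 1 and 4.36 without naive library 2. Pttg1 encodes securin, the inhibitor that holds separase back until anaphase. It had 28.0 and 27.5 CPM in Th17 and 31.8 and 34.9 CPM in naive libraries, and its log2 of -0.26 (SE 0.15) did not pass and was 0.04 with library totals alone. Espl1 itself had 48.0 and 43.7 CPM in Th17 and 2.12 and 0.634 CPM in naive libraries.

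Mitotic RNA also differed between the naive libraries. Library 1 lay above library 2 for 47 of the 54 genes, against 49.1% of all genes tested, with a median log2 difference of 0.37 on a pseudocount of 0.5 CPM, against 0.00 over all genes. Mki67 was 4.22 times higher in naive library 1 than in library 2 (exact 95% counting interval 2.91 to 6.32), Cenpe 2.97 times (1.72 to 5.40) and Top2a 1.71 times (1.43 to 2.04). The counting interval lay above 1 in 18 of the 54 genes and in 22.8% of all genes tested, and below 1 for Bub3. Such intervals compare these libraries, not conditions, and cover counting error only. Summed markers of naive T cells were 5980 CPM in library 1 and 6210 CPM in library 2, and those of Th17 cells 0.796 and 0.563 CPM. Leaving out a naive library moved the fold change of 12 of the 54 genes by over 1.5 times, each given above with its values, with 50 of the 54 called higher either way. What sets the naive libraries apart was not tested.

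**Figure D4:**
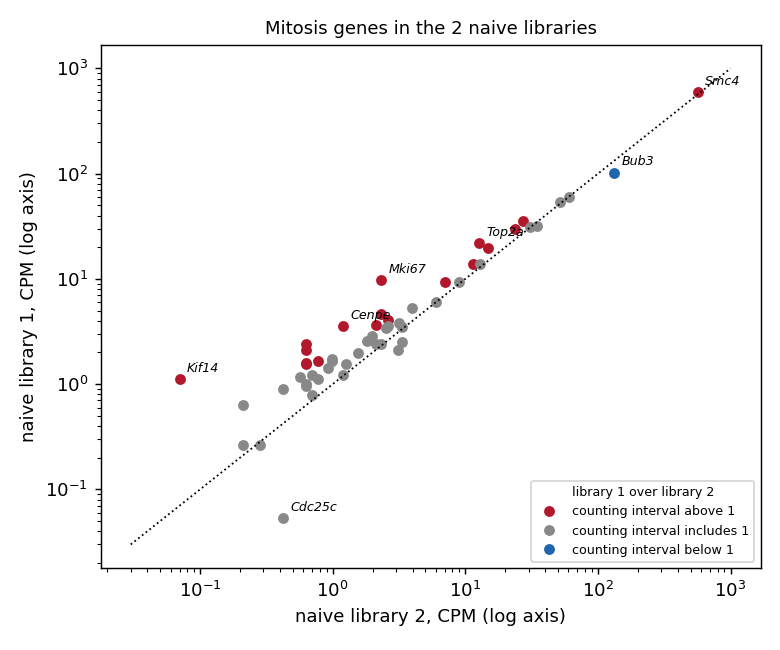
CPM of the 54 genes in naive library 1 (y axis) and naive library 2 (x axis), both on log scales, with the line of equal levels dotted and colours for the exact 95% counting interval of the ratio. Points lie above the line for 47 of 54 genes, Mki67 by 4.22 times.

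The Th17 libraries also differed. Th17 library 1 lay above library 2 for all 54 genes, against 60.2% of all genes tested, and the median log2 of library 2 over library 1 was -0.27 over the 54 genes and -0.07 over all genes. On the same pseudocount of 0.5 CPM single genes ran from -0.52 to -0.02. With either Th17 library left out, 49 of the 54 genes were called higher, Mki67 being the one lost in both cases.

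Other genes of mitosis were split more evenly. There were 159 measured genes, from 163 symbols on lists of the other kinetochore, checkpoint, spindle, centrosome, cytokinesis, cohesin, condensin, APC/C and regulatory genes. Over all genes tested, 34.3% were higher and 30.7% lower. Of the 159 genes 86 were higher and 28 lower in Th17 cells, with a median log2 of 0.51. The 28 became 12 with library totals alone, 17 without naive library 1 and 17 without naive library 2. Kinetochore and centromere genes were higher in 19 of 26, with Ska3, a subunit gene of a microtubule-binding complex, at 5.41 (SE 0.35). Of the same complex, Ska1 rose by 6.83 (SE 0.81), from 0 and 2 naive reads, and Ska2 by 0.62 (SE 0.21). Mis12 was lower at -0.44 (SE 0.15). Of 8 other checkpoint genes 5 were higher and 1 lower, and of 12 other cytokinesis genes 4 were higher and 4 lower. Of 16 cohesin genes 4 were higher, 3 lower and 9 not called, with both directions under their share of all genes tested. Esco2 at 4.89 (SE 0.42), Cdca5 at 4.71 (SE 0.24), Sgo2a at 4.67 (SE 0.39) and Sgo1 at 4.47 (SE 0.30) rose. The cohesin loader gene Mau2 at -1.52 (SE 0.17), Esco1 at -0.81 (SE 0.16) and Stag1 at -0.45 (SE 0.17) fell. The edgeR adjusted p of Stag1 was 0.04, near the threshold. Condensin II, which also holds SMC2 and SMC4, had Ncapg2 at 4.37 (SE 0.23) and Ncapd3 at -0.64 (SE 0.16), and Ncaph2 at 0.23 (SE 0.15) did not pass. Ncaph2 was called higher with upper quartile scaling, with library totals and by DESeq2, and Ncapd3 was not called with library totals, at a log2 of -0.34. Mis12 was not called in 6 of 11 alternatives, at a log2 of -0.53 to -0.14, the smallest with library totals and the largest without naive library 1. Without naive library 1 the log2 of Esco2 was 5.78.

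**Figure D5:**
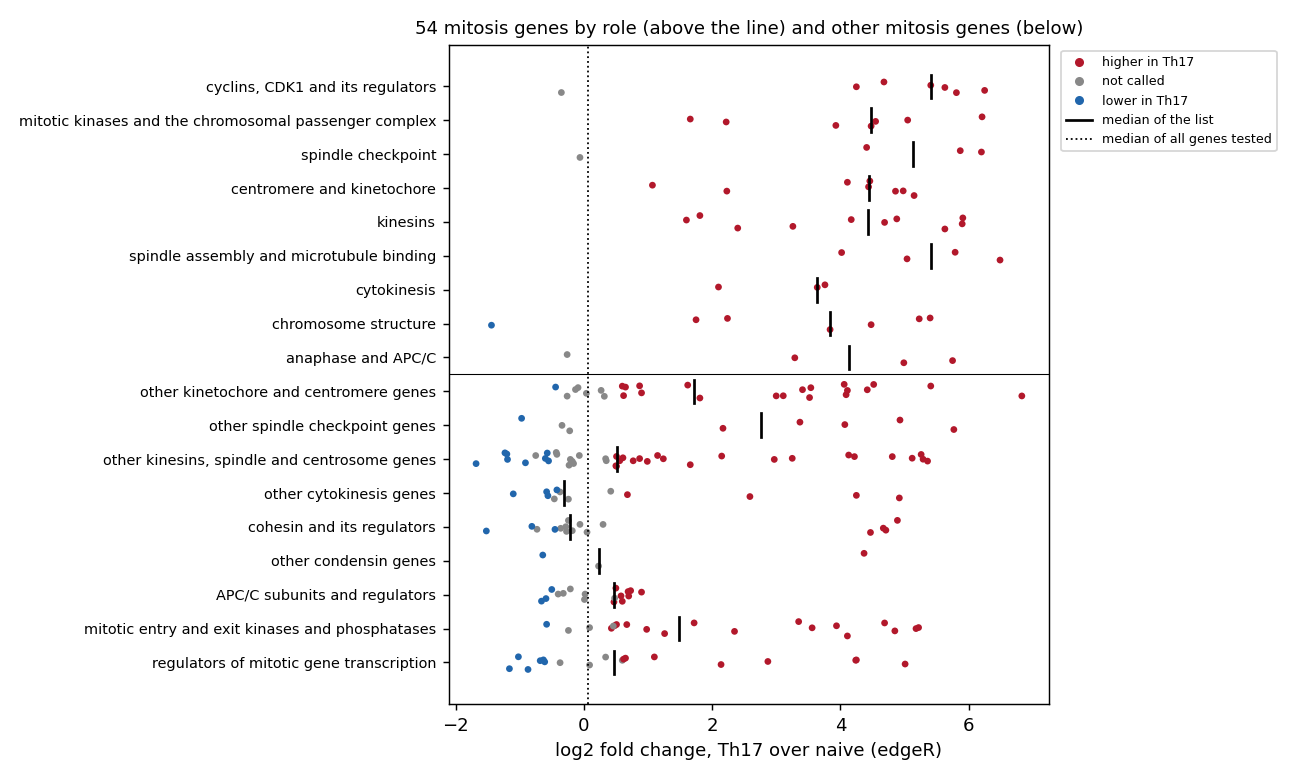
Log2 fold change of Th17 over naive (x axis) of the 54 genes by role (above the line) and of 159 other mitosis genes by list (below), red for higher, blue for lower and grey for not called, with the median of each list as a black bar and that of all genes tested, 0.06, dotted. Lists of the 54 genes have medians of 3.64 to 5.42, and the other lists run from -0.30 to 2.77.

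Of 17 genes of the APC/C list 8 were higher and 3 lower, with a largest rise of 0.90 (SE 0.16) for Cdc27. Beside these and the counts below, 34.3% of all genes tested were higher and 30.7% lower. Of 39 other kinesin, spindle and centrosome genes 21 were higher and 8 lower. The largest rises were those of Kif18b by 5.36 (SE 0.28), Spag5 by 5.29 (SE 0.30) and Stil by 5.26 (SE 0.41), the last at 6.21 without naive library 1. The largest falls were those of Numa1 by 1.68 (SE 0.20), Tubgcp6 by 1.23 (SE 0.17), Cep63 by 1.20 (SE 0.15) and Tubgcp3 by 1.19 (SE 0.18). Of 20 entry and exit genes 16 were higher, led by Pbk at 5.22 (SE 0.48), Mastl at 5.18 (SE 0.42) and Gtse1 at 4.85 (SE 0.24). Without naive library 1 Pbk stood at 6.39 and Mastl at 5.78, and without naive library 2 Pbk stood at 4.57.

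Regulators of mitotic transcription went both ways, with 8 of 18 higher and 6 lower, where 34.3% of all genes tested were higher and 30.7% lower. Mybl2, which encodes B-MYB and turns MuvB into an activator, averaged 47.4 ± 11.5 CPM in Th17 cells and 2.46 ± 0.495 CPM in naive cells (SD, n = 2 each), a log2 of 4.25 (SE 0.26). Foxm1, the forkhead factor of G2 and M phase, averaged 42.4 ± 4.30 CPM in Th17 cells and 5.80 ± 0.132 CPM in naive cells (SD, n = 2 each), a log2 of 2.87 (SE 0.18). The atypical E2F genes E2f8 and E2f7 rose by 5.01 (SE 0.38) and 4.24 (SE 0.63). They stood at 5.80 and 5.68 without naive library 1, and E2f7 at 3.52 without naive library 2. Rbl1 and Rbl2, pocket proteins that keep MuvB repressive in resting cells, fell by 0.87 (SE 0.17) and 0.61 (SE 0.16). The MuvB subunit genes Lin37 and Lin52 fell by 0.63 (SE 0.16) and 0.68 (SE 0.24). Of the other MuvB subunit genes, Lin54 rose by 0.65 (SE 0.16). Lin9 at 0.09 (SE 0.22) and Rbbp4 at -0.37 (SE 0.17) did not pass. Of the NF-Y subunit genes Nfya fell by 1.16 (SE 0.16), Nfyc fell by 1.02 (SE 0.18) and Nfyb rose by 1.10 (SE 0.16). Several of these falls lost their call with a naive library left out, where all calls went down to 5003 without library 1 and 5118 without library 2, against 7800 with both, while the log2 values changed little. Without naive library 1 the log2 was -0.95 for Rbl1, -0.57 for Rbl2, -0.78 for Lin52 and -1.14 for Nfyc, and without naive library 2 it was -0.92 for Rbl1, -0.65 for Lin37, -0.70 for Lin52 and -0.98 for Nfyc, none of them called. With library totals Rbl2 at -0.31, Lin37 at -0.33 and Lin52 at -0.38 were not called, and without Th17 library 2 neither Rbl2 at -0.51 nor Lin52 at -0.49 was. Lin52 lost its call in 7 of 11 alternatives in all. Among the other mitosis genes with promoter windows, the CHR letters stood in 38.6% of 83 windows of genes called higher. They stood in 33.3% of 36 windows of genes not called and in 7 of 32, or 21.9%, of those of genes called lower. Over all 32851 promoter windows the share was 19.2%.

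RNA editing touched the set at 1 adenosine. The site lay in the 3′ UTR of Spc24 at chromosome 9, position 21755850 (mm10), on the minus strand, and was listed in both editing tables, with values for Th17 cells and none for naive cells, where Spc24 had 27 and 13 reads. It is shown in 30 bases of the GENCODE M21 transcript, chr9:21755836-21755865, minus strand, with the edited adenosine in capitals.
Spc24: gcagccagtgctcttAattgttgagctgtc
In the table of Th17 and naive cells 25% and 41.7% of the reads were edited in Th17 libraries 1 and 2, the second value from 5 of 12 reads (exact 95% interval 15.2% to 72.3%). In the table of DDX5∆T and WT cells 16.7% and 26.9% were edited in DDX5∆T libraries, against 23.8% and 22.2% in WT libraries, the last from 4 of 18 reads (6.41% to 47.6%). These groups overlapped, and depth behind the remaining values is unknown. The 2 tables listed 869 and 355 sites, and no other site fell in any of the 54 genes.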

How the data were processed

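The 54 genes and all lists were chosen with earlier results of these data known. The authors deposited counts per gene and library for 2 Th17 and 2 naive libraries, called original per the file headers, beside a normalized signal, a log2 fold change and an adjusted p-value made by the authors. Per the submitters' processing notes, the tools were STAR 2.6.1a, featureCounts and DESeq2 1.18.1, on mm10. The editing tables give, as deposited, the fraction of edited reads per site (printed as percent), a confidence score and a coverage count. That count belongs to Th17 library 2 and WT library 2, whose products of fraction and coverage were whole numbers within 0.01 at 100% of sites, against 6.52% to 7.92% elsewhere.

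Here edgeR 4.0.16 (R 4.3.3) was run on the counts as deposited, with filterByExpr, TMM and a robust quasi-likelihood fit on group alone. The SE is the size of the log2 fold change divided by the square root of F. Of 16308 genes 11989 were tested. Levels per kilobase use merged exons of GENCODE M21 on mm10. Alternatives were RLE, upper quartile and library-total scaling, other filters, DESeq2 1.42.0, a replicate block and leaving out each library. A floor of 3 reads is 0.104 to 0.227 CPM. The labels name no molecular identifiers, so PCR copies may be counted as reads, and intervals cover counting error only. Every one of the 54 genes could be named. Of the other lists, genes called lower, the 3 largest and 3 smallest rises per list, Foxm1, Mybl2 and, in lists with 5 or fewer, genes that did not pass could be named. One list of marker genes is not reported here.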

Additional observations from a re-analysis of the deposited data

How the results depend on the processing

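Over the 54 genes, 49 or 50 were called higher under each of the 11 alternatives, and Smc4 was called lower in each. Scaling by library totals alone shifted the median log2 fold change of all genes by 0.30, and upper quartile scaling by 0.11. With library totals the median of the 54 genes was 4.75, 12 other mitosis genes were lower, and 66.4% of all calls were higher, against 52.8% with TMM. Leaving out each library gave medians of 4.12 to 4.70, 1 to 2 of the 54 lower, and 17 to 27 other mitosis genes lower. The second lower gene was Cdc25b without Th17 library 1, at a log2 of -0.53 and an adjusted p of 0.033 by edgeR (0.033 to 0.73 over 11 alternatives). Bub3 turned to 0.05 with upper quartile scaling, to 0.24 with library totals and ran from -0.27 to 0.06 when 1 library was left out, positive at 0.04 and 0.06 without Th17 library 2 and naive library 2. Pttg1 turned to 0.04 with library totals. With the replicate block 50 of the 54 genes were higher and 1 lower, with a median of 4.51. Deviations of same-numbered libraries correlated at r = -0.0494 over 11989 genes. Naive library 2 and Th17 library 2 share an identifier of unknown meaning, and the libraries numbered 1 do not. The correlation mixes both numbers, so it cannot show whether the libraries numbered 2 are paired. The labels do not say what the identifier marks, so the numbers were not taken to pair the libraries. In 100 bases before to 50 after the start site, 66.7% of the windows held the CHR letters. With a lone library in a group, that library is assumed to vary like the other group. The cause of these shifts was not tested. Genes with under 10 naive reads have counting error that limits their fold changes. Of the other mitosis genes named, Ska1, Ska2, Esco1, Stag1, Lin54, Lin9 and Rbbp4 were not compared over the alternatives. Of the rest none changed sign in any of the 11 alternatives. Of their 352 comparisons, 23 lost a call.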
